A study of Mus musculus with 4 samples.

Results

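The 10 pan-leukocyte genes described here, *Ptprc*, *Laptm5*, *Coro1a*, *Cd53*, *Cd52*, *Lcp1*, *Rac2*, *Vav1*, *Spn* and *Arhgdib*, were taken by name and were found on the array through the transcript accession of their probes, as 10 of the 22911 genes with a matched symbol. They were read as a gauge of RNA from blood cells in a population of mesenchymal stroma cells (MSCs) that had been sorted as negative for CD45, beside CD8 T cells sorted from the same kind of tumor. All 10 were lower on the array of *Sipa1* KO MSCs than on that of Wt MSCs, with a median log2 ratio of -1.80, or 3.48-fold, and they differed little between the genotypes in CD8 T cells. They were also lower on both MSC arrays than on the CD8 T arrays, at a median of 27.4% of the CD8 T signal in Wt tumors and 7.56% in *Sipa1* KO tumors. Markers of single blood lineages differed in direction between the Wt and KO MSC arrays. In multiples of the 75th percentile of each array, summed B-lineage markers went from 684 to 41.9. T-cell markers, mostly *Cd2* on the Wt array, went from 19.6 to 4.21, and without *Cd2* from 2.75 to 2.73. Macrophage markers went from 23.5 to 27.7 and granulocyte markers from 706 to 790. Erythroid markers, mostly *Hba-a1* on the Wt array, went from 398 to 416, and without *Hba-a1* from 84.0 to 81.3.

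RNA was hybridized in 1 color, Cy3, to 4 Agilent mouse expression arrays, 1 for each sort and genotype. The mice were Wt or *Sipa1* KO, strain C57BL/6Ncr by the labels and 8 weeks old, and *Sipa1* encodes a GTPase-activating protein that turns off Rap1. All of them carried subcutaneous tumors grown in Matrigel for 12 days from GFP-positive *Bcr-Abl* hematopoietic progenitors, which the study made from Wt bone marrow by retroviral transfer, so that the genotype is that of the host and not of the leukemia. MSCs were the GFP- CD45- Ter119- CD31- cells and CD8 T cells the GFP- TCRb+ CD8+ cells of digested tumors. The series names 5 mice per genotype, and whether their RNA was pooled for an array is not given in the sources used here. With 1 array per condition no difference has a replicate check, so no test, p-value or standard error is given, and the number of arrays limits the precision. In such bulk samples fewer cells of a type and less RNA per cell cannot be told apart.

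Pan-leukocyte genes are those that nearly all white blood cells express and that fibroblasts, endothelium and other solid tissue cells do not. Many encode surface proteins such as the phosphatase CD45, and others the actin and Rac GTPase machinery with which blood cells crawl, spread and form contacts with other cells. Rac GTPases drive actin assembly when exchange factors such as Vav1 load them with GTP, and GDP-dissociation inhibitors hold them in the cytosol. Because CD45 marks nucleated blood cells, an antibody against it is the usual means of removing them from stromal preparations. Several transcription factors of blood cells, among them the ETS factor PU.1 and Runx factors, act at the promoters of such genes.

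The promoters of 3 of the genes are shown because they belong to the antigen of the stromal gate (*Ptprc*) and to the genes with the lowest ratios between the MSC arrays (*Vav1* and *Coro1a*). The sequences are those of RefSeq, build GRCm38.p6, from 250 bases before to 50 bases after the annotated start, written 5′ to 3′ on the strand of the gene. Capitals mark letters that match 1 of 3 motifs on either strand, and no match overlapped another. The first motif, GAGGAA, is a core of the sites that PU.1 and related ETS factors bind. The second, TGTGGT, is a core of the sites that Runx factors bind. The third, TATAAA, is the core of the TATA box, which places the start of transcription.
*Ptprc* promoter, chr1:138175256-138175555, minus strand: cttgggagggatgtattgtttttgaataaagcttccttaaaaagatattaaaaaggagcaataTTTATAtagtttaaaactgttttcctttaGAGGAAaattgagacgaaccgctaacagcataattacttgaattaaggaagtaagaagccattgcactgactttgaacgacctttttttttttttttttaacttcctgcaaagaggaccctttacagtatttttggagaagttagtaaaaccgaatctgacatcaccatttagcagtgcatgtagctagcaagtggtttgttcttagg
*Vav1* promoter, chr17:57278850-57279149, plus strand: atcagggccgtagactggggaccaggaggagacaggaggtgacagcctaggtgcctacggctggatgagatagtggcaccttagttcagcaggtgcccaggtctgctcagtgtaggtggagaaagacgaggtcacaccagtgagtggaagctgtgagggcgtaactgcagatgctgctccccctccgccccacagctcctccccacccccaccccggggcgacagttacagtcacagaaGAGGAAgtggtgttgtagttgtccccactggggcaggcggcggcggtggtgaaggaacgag
*Coro1a* promoter, chr7:126704767-126705066, minus strand: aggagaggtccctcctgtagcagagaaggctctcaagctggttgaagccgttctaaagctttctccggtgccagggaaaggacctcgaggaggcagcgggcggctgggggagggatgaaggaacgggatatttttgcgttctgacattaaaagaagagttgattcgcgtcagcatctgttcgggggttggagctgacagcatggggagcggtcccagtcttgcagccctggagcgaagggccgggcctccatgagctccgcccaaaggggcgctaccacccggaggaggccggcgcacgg

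The *Ptprc* window held 1 GAGGAA, 158 bases before the start, and, on the other strand, 1 TATAAA, 187 bases before it. The *Vav1* window held 1 GAGGAA, and the *Coro1a* window held none of the 3 motifs. *Ptprc* and *Coro1a* have 2 annotated starts each, and the window of start 1 is shown. The windows of start 2, not shown, held 0 matches. The table gave 13 promoters for 8 of the 10 genes, and *Cd52* and *Rac2* were not matched. GAGGAA was found in 5 of the 13 promoters (38.5%) and in 28.3% of all 32851 promoters, TGTGGT in 2 (15.4%) against 16.8%, and TATAAA in 3 (23.1%) against 13.6%. The promoters with GAGGAA belonged to *Ptprc*, *Cd53*, *Laptm5*, *Vav1* and *Arhgdib*. The median GC content of the 13 promoters was 52.7%, and over all promoters it was 52.7% as well. These matches describe letters in the windows only.

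Values below are log2 signals after subtraction of the 75th percentile of each array, so that 0 is that percentile, and a ratio is a difference of such signals between arrays. Of the spots that are not controls, 60.3% to 65.3% were well above background, and no spot was saturated. Probes printed on 10 spots of an array had a median SD of 0.040 to 0.045 in log2 signal, a measure of spot noise that leaves out differences between mice. The *Sipa1* probes, whose place relative to the deletion is not given in the sources used here, went from 3.05 to 1.46 and from 5.03 to 3.78 in MSCs and from 3.43 to 1.39 and from 5.40 to 3.73 in CD8 T cells. On both MSC arrays 9 of 10 fibroblast markers passed the quality flags of the study, and on both CD8 T arrays 10 of 10 T-cell markers did. Fibroblast markers also passed on both CD8 T arrays, 10 of 10. T-cell markers passed on the MSC arrays as well, 9 of 10 in Wt and 10 of 10 in *Sipa1* KO. Passing the flags thus did not set the sorts apart. The 16 probes of the pan-leukocyte genes passed the flags on all 4 arrays.

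**Figure D1:**
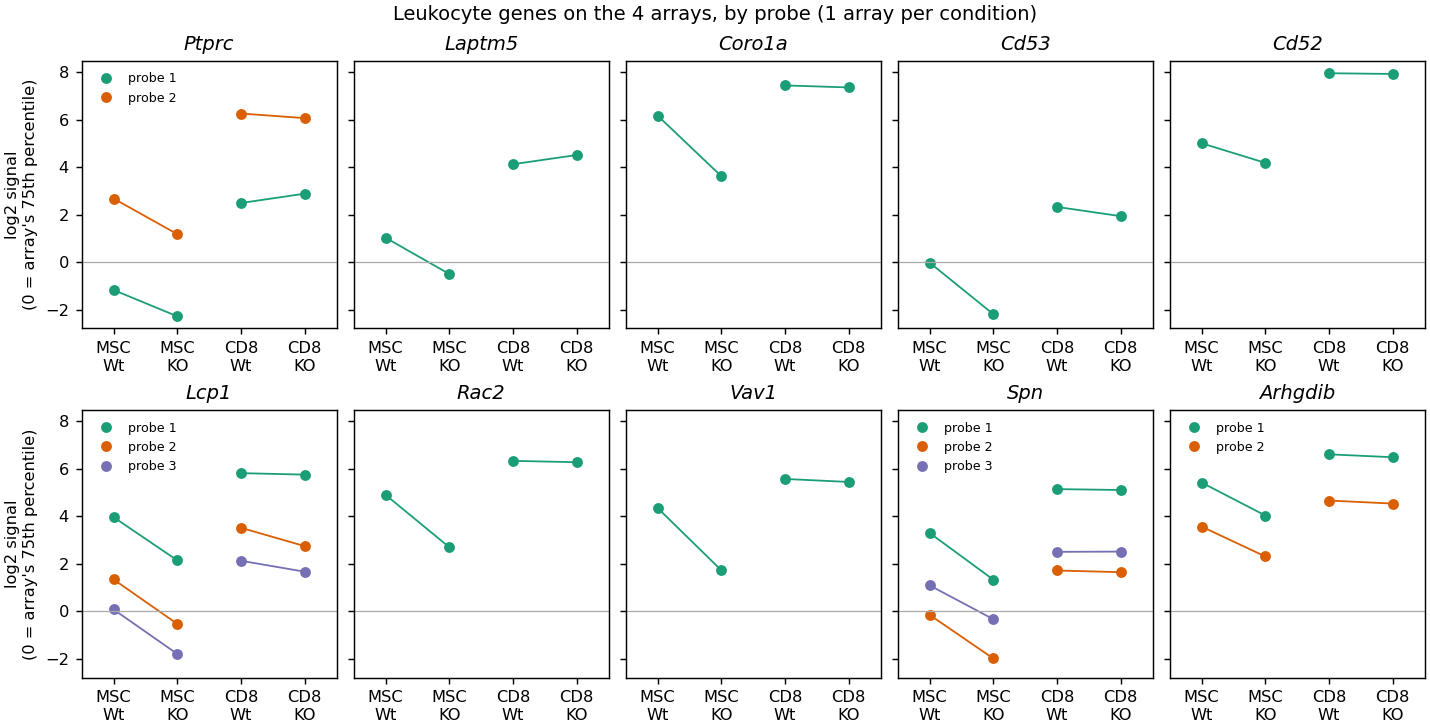
Log2 signal of each probe of the 10 genes (vertical axis, 0 is the 75th percentile of the array) on the 4 arrays, with lines joining Wt and Sipa1 KO of the same sort and colors for the probes of a gene. Each probe is lower on the KO than on the Wt MSC array, as *Vav1* at 1.73 and 4.35, and higher on both CD8 T arrays, between which 10 of the 16 probes lie within 0.15 of each other and an *Lcp1* probe differs by -0.77.

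Among the surface proteins, *Ptprc* encodes CD45, the tyrosine phosphatase that sets the activity of Src family kinases behind antigen receptors. Its level, the mean of 2 probes, was 0.76 in Wt MSCs and -0.55 in *Sipa1* KO MSCs, and in CD8 T cells it was 4.38 for Wt and 4.48 for KO. *Ptprc* RNA was thus present above background in both CD45- sorts, at 8.13% of the CD8 T signal in Wt tumors and at 3.07% in *Sipa1* KO tumors, and between the MSC arrays it was 2.47-fold lower in the KO. Both probes gave that direction, with ratios of -1.11 and -1.50.

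*Spn* encodes CD43, a mucin-like sialoglycoprotein of leukocytes. Over 3 probes its levels were 1.42 and -0.33 on the Wt and *Sipa1* KO MSC arrays and 3.12 and 3.09 on the CD8 T arrays in the same order, a ratio of -1.74 in MSCs. *Cd53* encodes a tetraspanin, a class of proteins that organize other membrane proteins. It went from -0.016 to -2.19 in MSCs, 4.50-fold lower in the KO, and from 2.33 to 1.94 in CD8 T cells. *Cd52*, a short lipid-anchored glycopeptide, was the exception. It was at 5.01 on the Wt and 4.18 on the *Sipa1* KO MSC array and at 7.96 and 7.93 on the CD8 T arrays, and its MSC ratio of -0.82, 1.77-fold, was the only one of the 10 that stayed within 2-fold.

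*Laptm5* encodes a lysosomal membrane protein that lowers antigen receptors at the surface of lymphocytes. It was at 1.03 and -0.49 on the Wt and *Sipa1* KO MSC arrays, a ratio of -1.53. On the CD8 T arrays it was at 4.13 and 4.51, the largest ratio above 0 among the 10 genes in that sort, 0.39. *Laptm5* and *Ptprc* were the genes furthest below the CD8 T level on the *Sipa1* KO MSC array, at 3.11% and 3.07%.

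The actin regulators were further apart between the MSC arrays than *Ptprc*, but not than every gene of a surface protein. *Cd53* had a ratio of -2.17, below the -1.85 of *Lcp1*. *Coro1a* encodes coronin 1A, an actin-binding protein needed for T-cell survival and exit from the thymus, and it was at 6.18 on the Wt and 3.62 on the *Sipa1* KO MSC array, 5.86-fold lower in the KO. On the CD8 T arrays it was at 7.44 and 7.36. *Lcp1* encodes L-plastin, which bundles actin filaments. Its 3 probes had MSC ratios of -1.82, -1.87 and -1.87, and its mean level went from 1.80 to -0.058. In CD8 T cells the same probes had ratios of -0.062, -0.77 and -0.46, so that they disagreed there by 0.71 on the log2 scale.

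Of the genes of Rac GTPase signaling, *Vav1*, the exchange factor that activates Rac behind antigen receptors, had the lowest MSC ratio of the 10 genes. It was at 4.35 on the Wt and 1.73 on the *Sipa1* KO MSC array, 6.16-fold lower, and at 5.57 and 5.45 on the CD8 T arrays. *Rac2*, the Rac GTPase restricted to blood cells, was at 4.91 and 2.70 in MSCs, 4.61-fold lower, and at 6.33 and 6.28 in CD8 T cells. *Arhgdib*, the GDP-dissociation inhibitor of lymphoid and myeloid cells, was at 4.49 and 3.17 in MSCs, 2.50-fold lower, and at 5.64 and 5.51 in CD8 T cells. Exchange factor, GTPase and inhibitor were thus all past 2-fold, with the inhibitor nearest to that limit.

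**Figure D2:**
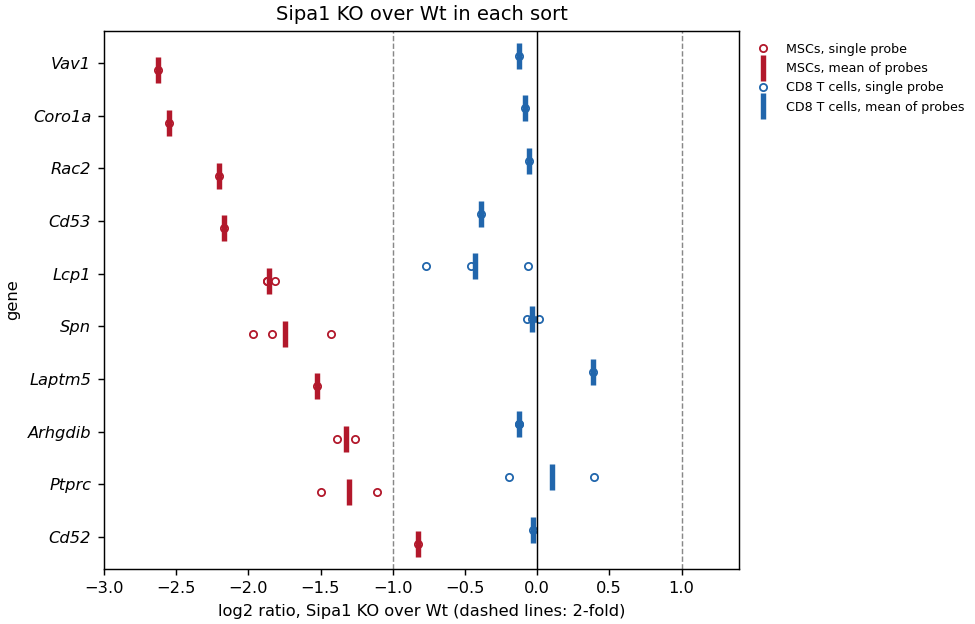
Log2 ratio of Sipa1 KO over Wt (horizontal axis) for each gene in MSCs (red) and CD8 T cells (blue), open circles for single probes and bars for the mean of the probes of a gene. In MSCs the genes run from -2.62 for *Vav1* to -0.82 for *Cd52*, and in CD8 T cells from -0.43 for *Lcp1* to 0.39 for *Laptm5*.

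Taken over the list, 9 of 10 genes were at least 2-fold lower on the *Sipa1* KO MSC array, where 11.3% of all 15298 measured genes were, and 0 were at least 2-fold higher, where 19.3% of all genes were. Under the scaling of the authors' series matrix these background shares were 8.37% and 24.0%, with 9 of the 10 genes still at least 2-fold lower. The median ratio of all genes in this pair was 0.043. All 16 probes were lower on the *Sipa1* KO array and 15 of them at least 2-fold. The 10 ratios had an SD of 0.58 over genes, and for the 4 genes with several probes the widest range between probes of a gene was 0.54. The lowest and the highest ratio of the 10 genes were 3.48-fold apart. A ratio as low as that of *Vav1* or lower was found in 1.66% of all genes, and one as low as that of *Cd52* in 14.9%.

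In CD8 T cells 0 of the 10 genes passed 2-fold downward and 0 upward on the *Sipa1* KO array, where 1.4% and 2.66% of all 14339 measured genes did. Under median shift, an alternative scaling to the median of each array, these background shares were 1.79% and 1.99%. The median ratio of the 10 genes was -0.072, and 10 of the 16 probes had ratios within 0.15 of 0 on the log2 scale. The ratios furthest below 0 were those of *Lcp1* (-0.43) and *Cd53* (-0.39). The MSC ratio was below the CD8 T ratio for all 10 genes, with a difference from -2.50 (*Vav1*) to -0.79 (*Cd52*) on the log2 scale, which was not tested. *Ptprc* had CD8 T ratios of 0.39 and -0.19 for its 2 probes, so that its direction there depends on the probe.

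The comparison of MSCs with CD8 T cells of the same genotype asks how far the CD45- sort lay below cells that express these genes. In Wt tumors all 10 genes were at least 2-fold lower on the MSC array, where 12.8% of all 14225 measured genes were lower by that much and 17.3% higher. The distance was uneven. *Arhgdib* was at 45.3% of its CD8 T signal, *Vav1* at 42.9%, *Coro1a* at 41.5% and *Rac2* at 37.1%. *Spn* with 30.6%, *Lcp1* with 24.6% and *Cd53* with 19.7% came next. *Cd52* with 13.0%, *Laptm5* with 11.7% and *Ptprc* with 8.13% were furthest below, and the extreme genes were 5.57-fold apart in this share. Under the scaling of the authors' series matrix the count of genes at least 2-fold lower was 6 of 10, where 7.61% of all genes were lower and 24.9% higher. Under median shift it was 10 of 10, where 17.6% were lower and 14.6% higher. Quantile normalization gave 8 of 10, where 13.7% of all genes were lower and 16.5% higher. *Arhgdib* was then at -0.94 and *Coro1a* at -0.62, or 64.9% of its CD8 T signal.

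In *Sipa1* KO tumors all 10 genes were again at least 2-fold lower in MSCs than in CD8 T cells, where 18.7% of all 14301 measured genes were lower by that much and 21.9% higher. The background shares were 9.49% and 30.5% under the series matrix and 26.0% and 19.5% under median shift, with 10 of 10 genes lower under both. *Arhgdib* was highest, at 19.8% of its CD8 T signal, and *Laptm5* and *Ptprc* were lowest. The other 7 genes lay between 5.73% (*Cd53*) and 9.36% (*Spn*). With normexp background correction *Cd53* was at 9.51% and no longer the lowest of them. *Vav1*, *Coro1a* and *Rac2*, which had been among the 4 genes nearest to the CD8 T level in Wt tumors, were here at 7.61%, 7.51% and 8.37%, close to *Cd52* with 7.47%. Each of the 4 arrays enters several of these comparisons, so the shares are given side by side and not as independent results.

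**Figure D3:**
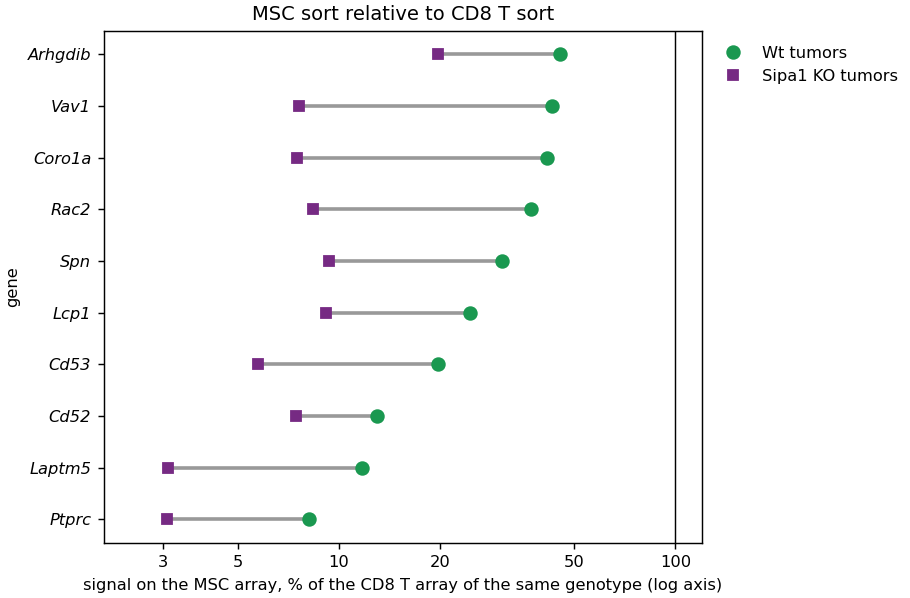
Signal on the MSC array as a percent of that on the CD8 T array of the same genotype (horizontal log axis), with circles for Wt and squares for Sipa1 KO tumors and a line joining the same gene. All genes lie below 100%, and from Wt to KO *Vav1* moves from 42.9% to 7.61% and *Cd52* from 13.0% to 7.47%.

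A list of 24 other leukocyte genes, of which 23 were matched, had the same direction for most genes but not for every gene. In MSCs 18 of 23 were at least 2-fold lower in the KO, 5 were within 2-fold and 0 were at least 2-fold higher, with a median ratio of -2.41. Among all genes 11.3% were lower by that much and 19.3% higher. The lowest ratios were those of *Ptprcap*, the protein associated with CD45, which went from 5.55 to 1.59, and of the tetraspanin *Cd37*, which went from 3.38 to -0.18. At the other end *Lsp1*, an actin-binding protein of leukocytes, went from 3.64 to 4.33 and the adaptor *Fyb* from -1.59 to -1.20, both within 2-fold. In CD8 T cells 0 of 23 were at least 2-fold lower or higher, where 1.4% and 2.66% of all genes were, and the median was -0.031.

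Against the CD8 T level in Wt tumors, 15 of these 23 genes were at least 2-fold lower in MSCs, where 12.8% of all genes were. Their median ratio was -1.56. *Cd37*, which B cells express strongly, was 1.41-fold higher on the Wt MSC array than on the Wt CD8 T array, at 3.38 and 2.89. In *Sipa1* KO tumors 23 of 23 were at least 2-fold lower in MSCs, where 18.7% of all genes were. Their median was -3.77, close to the median of -3.73 for the 10 pan-leukocyte genes.

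Relatives of the 10 genes that are not known to be restricted to leukocytes as a group gave a different picture. Of 16 such genes, from the Rac, Vav, GDP-dissociation inhibitor, coronin, plastin, Laptm and tetraspanin families, 15 were measured on both MSC arrays. In the KO 8 of them were 2-fold higher or more, where 19.3% of all genes were, and 7 were within 2-fold. Downward 0 passed 2-fold, where 11.3% of all genes did, and the median ratio was 1.10. The highest were *Laptm4b*, a lysosomal relative of *Laptm5*, from 0.86 to 3.30, and *Rac3*, from -1.44 to 0.31. The lowest were the exchange factors *Vav3* and *Vav2*, with ratios of -0.59 and -0.50. *Rac1*, the widely expressed counterpart of *Rac2*, was at 4.03 and 4.17 in MSCs, and *Arhgdia*, that of *Arhgdib*, at 6.44 and 6.35. These last 2 genes were named after their values were seen. In CD8 T cells the 15 measured relatives had a median of 0.015. There 0 were past 2-fold, where 1.4% of all genes were lower by that much and 2.66% higher. Against the CD8 T level in Wt tumors, 5 of 15 were at least 2-fold higher in MSCs and 1 lower, where 17.3% and 12.8% of all genes were. In *Sipa1* KO tumors 8 of 15 were higher and 1 lower, where 21.9% and 18.7% of all genes were. The medians were 0.50 and 1.88, so the list was not level between the sorts.

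Marker lists of single cell types moved beside the pan-leukocyte genes, and their part in the result was not tested. All 10 B-lineage markers were at least 2-fold lower on the *Sipa1* KO MSC array, where 11.3% of all genes were. All of these markers passed the flags on all 4 arrays. Their summed signal, in multiples of the 75th percentile, was 684 on the Wt and 41.9 on the *Sipa1* KO MSC array, beside 29.6 and 21.1 on the CD8 T arrays. The same sum for the 10 pan-leukocyte genes was 188 and 52.7 in MSCs and 667 and 642 in CD8 T cells. The lowest B-lineage ratios were those of *Dntt*, the terminal transferase of early lymphocytes, from 4.54 to -0.17, and *Igll1*, a surrogate light chain of pre-B cells, from 4.82 to 0.13. The highest were those of the transcription factors *Ebf1* (-1.03) and *Pax5* (-2.55).

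T-cell markers did not move together in MSCs. Of 9 measured genes 3 were at least 2-fold lower and 3 at least 2-fold higher in the KO, where 11.3% and 19.3% of all genes were. *Cd2*, which mouse B cells express as well, went from 4.08 to 0.56 and the kinase *Zap70* from 0.065 to -1.53, while *Cd3g* went from -4.07 to -2.64 and *Cd8b1* from -2.56 to -1.26. *Cd8a* was not well above background on the Wt MSC array. The median ratio of the 9 genes was 0.66. The summed T-cell signal was 19.6 and 4.21 in MSCs against 538 and 557 in CD8 T cells, and *Cd2* alone made up 86.0% of the sum in Wt MSCs. Without *Cd2* the sum was 2.75 and 2.73 in MSCs.

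In the macrophage, granulocyte and erythroid lists 0 genes passed 2-fold downward on the *Sipa1* KO MSC array, while 2 of 10 macrophage and 2 of 9 granulocyte markers passed it upward and 0 of 10 erythroid markers did. Among all genes 11.3% passed it downward and 19.3% upward, so the upward macrophage and granulocyte counts were near the share of all genes. The median ratios of these lists were 0.42, 0.22 and -0.17. Macrophage markers had a summed signal of 23.5 on the Wt and 27.7 on the *Sipa1* KO MSC array, granulocyte markers 706 and 790, and erythroid markers 398 and 416, of which *Hba-a1* made up 78.9% in Wt MSCs. Without *Hba-a1* the erythroid sum was 84.0 and 81.3. On the CD8 T arrays, where the pan-leukocyte genes were nearly level, the granulocyte sum was 622 and 330, the macrophage sum 66.2 and 44.4 and the erythroid sum 9.38 and 4.44, with *Epb42* among the erythroid markers that were not well above background on either. At least 2-fold lower in that sort were 6 of 9 granulocyte, 1 of 10 macrophage and 5 of 8 measured erythroid markers, where 1.4% of all genes were. The medians were -1.12, -0.011 and -1.07, with 5 macrophage markers higher and 5 lower. Fibroblast markers were higher in the KO in both sorts, 9 of 9 measured genes in MSCs and 10 of 10 in CD8 T cells. At least 2-fold higher were 5 of 9 in MSCs, where 19.3% of all genes were, and 9 of 10 in CD8 T cells, where 2.66% were. Their sums were 969 and 1534 in MSCs and 206 and 300.5 in CD8 T cells. *Thy1* was the brightest of them on both CD8 T arrays, at 7.37 and 7.46, and the only measured one lower in MSCs than in CD8 T cells. The CD8 T sums thus rest largely on *Thy1*, whose CD8 T ratio was 0.088. Endothelial markers, with *Tie1* not well above background on either MSC array, had sums of 1.22 and 2.10 in MSCs, where 4 of 8 measured genes passed 2-fold upward and 1 downward in the KO, and 3.01 and 3.30 in CD8 T cells. The part of these cell types in the result was not tested either.

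**Figure D4:**
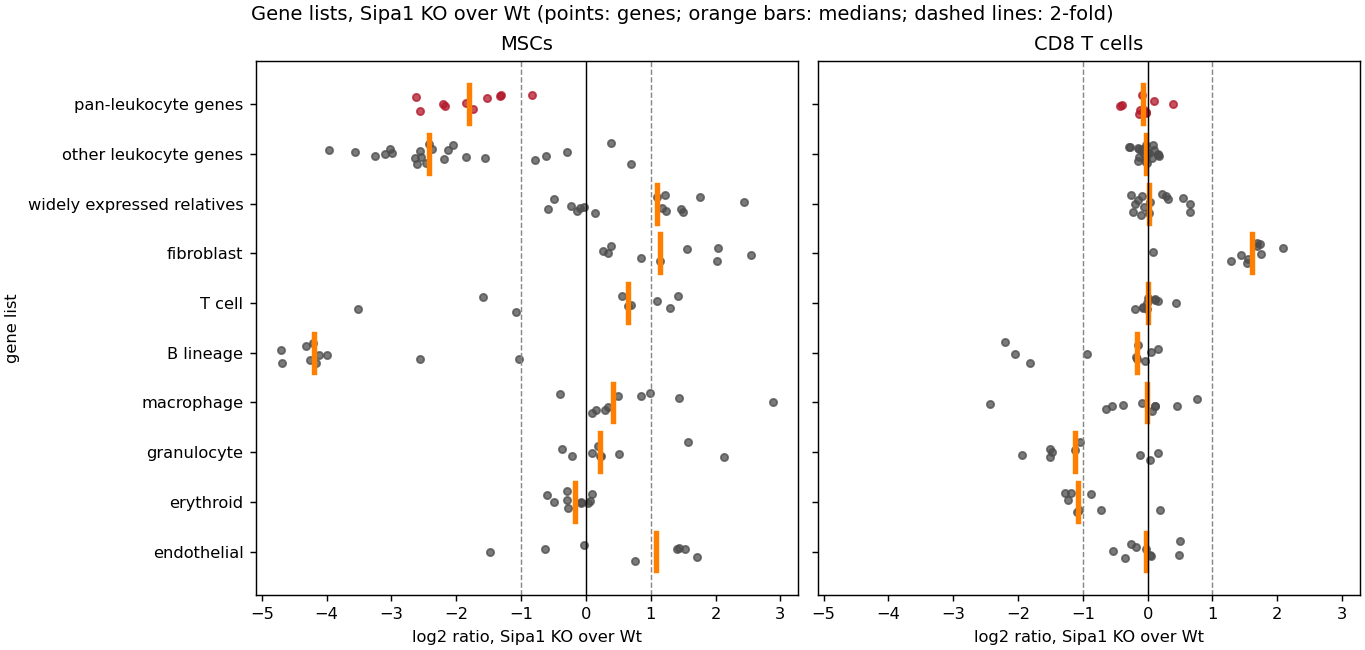
Log2 ratio of Sipa1 KO over Wt (horizontal axis) for the measured genes of each list in MSCs (left) and CD8 T cells (right), with 1 point per gene, the pan-leukocyte genes in red and orange bars for medians. In MSCs the pan-leukocyte median is -1.80, above -4.19 for the B-lineage list and -2.41 for the other leukocyte genes and below all other lists, and in CD8 T cells it is -0.072.

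Genes other than the 10 were ranked by the likeness of their profile to that of the 10 genes. Likeness was measured as the Euclidean distance between level profiles over the 4 arrays, each centered on its own mean, and compared with the mean profile of the 10 genes among 13766 genes that passed the flags on all arrays. The nearest genes were *Sh2d3c* at a distance of 0.031, *Stk26* at 0.057, *Epop* at 0.073, *Arhgap45* at 0.083 and *Kmo* at 0.15. *Sh2d3c*, for example, was at 2.06 and 0.22 in MSCs and at 4.09 and 4.04 in CD8 T cells. The 10 genes themselves lay between 0.33 (*Lcp1*) and 1.43 (*Ptprc*) from their mean profile. The nearest genes were chosen by this distance and the 10 genes were not, so the smaller distances do not show a closer likeness. With 4 arrays this is a description only.

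The genes lie on 8 chromosomes, with *Laptm5* and *Cd52* both on chromosome 4 and *Coro1a* and *Spn* both on chromosome 7. Of the 20 nearest measured protein-coding neighbors, 1 on each side of every gene, 3 were at least 2-fold lower on the *Sipa1* KO MSC array and 4 at least 2-fold higher, with a median ratio of 0.095. Among all genes 11.3% and 19.3% were, close to the shares among the neighbors. The 3 lower ones were *Crybg2* beside *Cd52* (-3.35), *Cpb2* beside *Lcp1* (-1.39) and *Cd2bp2* beside *Spn* (-1.14). The 4 higher ones were *Rerg* beside *Arhgdib* (2.07), *Ptpru* (2.06) and *Sdc3* (1.72) on either side of *Laptm5*, and *C1qtnf6* beside *Rac2* (1.52). These 7 genes were named after their values were seen.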

How the data were processed

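RNA of MSCs and CD8 T cells from tumors of Wt and *Sipa1* KO mice was measured on 4 arrays, 1 per condition. The deposited scanner values are spot intensities that the authors' Agilent Feature Extraction software (version 12.0.3.1 in the file headers, 9.1 in the submitters' processing notes) had corrected for background within each array, without normalization between arrays. The deposited series matrix holds the same intensities multiplied by 1 constant per array, 1.13 and 1.34 for Wt and KO MSCs and 0.941 and 1.13 for Wt and KO CD8 T cells, on a linear scale. How the constants were chosen is not given in the sources used here.

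Intensities were put on the log2 scale and the 75th percentile of the non-control spots of each array was subtracted. Replicate spots were averaged per probe and the probes per gene. Ratios used probes that passed the study's flags on both arrays of a pair (IsSaturated, IsFeatNonUnifOL and IsBGNonUnifOL at 0, IsPosAndSignif and IsWellAboveBG at 1). Accessions were matched to RefSeq symbols of GRCm38.p6 for 57.6% of non-control spots, and 118 of 120 list entries were matched. A log2 ratio of 1 was the limit for counts. Named genes are the 10 members, the 2 highest and 2 lowest by MSC ratio of a list, and the 5 genes nearest in profile. Outside this rule *Sipa1*, the targeted gene, is named, and *Hba-a1*, *Thy1*, *Rac1*, *Arhgdia* and the neighbors were named after their values were seen. For the fibroblast, macrophage, granulocyte, erythroid and endothelial lists only counts, medians and sums are given, apart from *Hba-a1*, *Thy1* and genes not well above background. The members and lists were chosen with earlier results of these data known. Each step was tested on simulated data with known changes. Alternatives were median shift, quantile normalization, the series matrix, normexp with an offset of 50, other uses of the flags, the brightest probe in place of the mean, and a restriction to genes brighter than the median. Python 3.11.15 was used with pandas 2.3.3, numpy 2.4.6 and matplotlib 3.10.9, and R 4.3.3 with limma 3.58.1.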

Additional observations from a re-analysis of the deposited data

Results flagged for a closer look

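*Ptprc* and *Laptm5* had ratios of *Sipa1* KO over Wt of opposite sign in the 2 sorts. The MSC ratio of *Ptprc* was -1.30 and its CD8 T ratio 0.10. Those of *Laptm5* were -1.53 and 0.39. The difference between the sorts was not tested, since each sort has 1 array per genotype. The 2 probes of *Ptprc* had CD8 T ratios of opposite sign, 0.39 and -0.19.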

How the results depend on the processing

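No paired analysis was possible because there is a single array per condition, and for the same reason no array could be left out. With spot noise as the only error, a ratio had an SD of 0.063, and 189 of 319 values of single genes moved by less than that under the 8 alternatives. Many of these values could not move. Every probe of the 10 genes passed the flags on every array, so other uses of the flags and the restriction to brighter genes left the remaining values unchanged. The brightest probe could not change genes with a single probe. The count is therefore not a measure of stability. Of the values past 2-fold, 0 turned sign. In CD8 T cells 12 of 80 ratios did, all of them within 2-fold and 7 of them under median shift or the series matrix. Median shift moved the median of all genes by -0.14, -0.15, -0.23 and -0.22, and the series matrix moved it by 0.21, 0.13, 0.45 and 0.53, in the order MSC KO over Wt, CD8 KO over Wt, MSC over CD8 in Wt and in KO. These settings shift every gene of a pair alike, so that the medians of the 10 genes relative to all genes stayed at -1.84, -0.050, -1.81 and -3.54. The medians of the 10 genes in that order, mainly -1.80, -0.072, -1.87 and -3.73, were -1.94, -0.22, -2.10 and -3.95 under median shift and -1.59, 0.061, -1.41 and -3.20 under the series matrix. Quantile normalization gave 0.032, -1.80 and -3.45 for the last 3, normexp -1.60 for the first and -1.76 and -3.59 for the comparisons of sorts, and the brightest probe -1.89 for the first. Of the 10 genes, 6 were at least 2-fold lower in Wt MSCs than in Wt CD8 T cells under the series matrix, where 7.61% of all genes were. *Cd53* was not among genes above the median signal in the MSC pair. That left 8 of 9 genes at least 2-fold lower, where 11.8% of all genes above the median signal were. In MSCs the other leukocyte genes had medians of -2.55 under median shift, -2.51 under quantile normalization, -2.21 under the series matrix and -2.04 under normexp. The relatives of the 10 genes had 0.96, 1.31 and 0.81 under median shift, the series matrix and normexp, and 1.20 when dimmer genes were left out. The cause of the moves under quantile normalization and normexp was not tested.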
